A study of Mus musculus with 24 samples.

Results

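A set of 9 genes of steroid metabolism was read in mouse liver by 14 array probes: Hsd3b2, Hsd3b3, Hsd3b5, Hsd11b1, Hsd17b2, Hsd17b13, Srd5a1, Akr1c6 and Cyp17a1. They were taken by gene name from the scanner files and made up 14 of 56605 probes and 9 of 36693 gene names. RNA from C57BL/6J livers was hybridised to 24 single-colour Agilent arrays, in 4 groups of 6: labelled male pesticide, female pesticide, male control and female control. Pesticide groups were labelled as given a diet enriched with a pesticide mixture for 52 weeks, control groups as given the control diet, and every mouse as 68 weeks old, an age that the purchase age, acclimatisation and diet time in the protocol do not add up to. Replicates are liver samples without mouse numbers, so p-values measure the spread between these samples.

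The liver both activates and clears steroid hormones. Enzymes of the 3-beta-hydroxysteroid dehydrogenase family act on the steroid A ring, 17-beta-hydroxysteroid dehydrogenases and aldo-keto reductases interconvert potent and weak sex steroids, and 11-beta-hydroxysteroid dehydrogenase regenerates active glucocorticoid. In mice, several of these genes, Hsd3b5 above all, are known for very different levels in male and female liver.

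The sex labels did not match the sex-linked transcripts. Xist, the RNA that coats the inactive X chromosome of female cells, was marked above background in all 12 pesticide-labelled livers and in 0 of 12 control-labelled livers, and Y-linked Eif2s3y, Ddx3y, Kdm5d and Uty showed the reverse. Labelled diet and sex-chromosome transcripts therefore ran together on every array, and their parts in any difference below cannot be told apart. The arrays correlated at Pearson r of 0.972 to 0.996, with 29935 to 39032 probes well above background per array (median 31519) and 0 saturated spots. Labelled female pesticide replicate 3 had the most such probes and the highest median spot signal, 109 against 63 on the dimmest array. Of 12 hepatocyte markers, all were tested, and their summed log2 level lay between 21.65 and 21.75 on all arrays. Here and below, the summed log2 level of a list is the log2 of its genes' linear signals added together. The brightest genes of a list weigh most in it, so it can stay flat while dimmer genes move.

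Probe sequences are shown for Hsd3b5, whose probe shares bases with a probe of a close relative, and for Hsd3b2, whose probes disagreed. Whether the shared bases affect the Hsd3b5 reading was not tested. Positions are on mouse build mm9, all on the minus strand of chromosome 3, and 30 of the bases of each probe are given. The Hsd3b5 probe (A_55_P2111980, NM_008295, chr3:98422576-98422635) and 1 Hsd3b4 probe (A_55_P1969665, chr3:98303020-98303079) shared an identical run of 23 bases, in capitals. It was the only run of 20 or more bases that a probe of these 9 genes shared with a probe of another gene on the array.
Hsd3b5, chr3:98422580-98422609: cattttgATACCTTTATGAAGCTCAAAGAA
Hsd3b4, chr3:98303031-98303060: aattcccATACCTTTATGAAGCTCAAAGAA
This Hsd3b4 probe ran at 4.82 to 5.65 (log2 intensity) and was well above background on 1 of 24 arrays. Of the other Hsd3b4 probes, A_52_P548963 ran at 5.05 to 7.77 (median 5.18) and was well above background on 3 arrays. A_66_P119820 ran at 4.73 to 5.15 and was well above background on 0. The 3 Hsd3b2 probes, shown because they disagreed, lie within a short stretch of the gene and share no run over 7 bases.
Hsd3b2 A_55_P2023114, chr3:98515733-98515762: aagctttgatgatataagttacaccttgag
Hsd3b2 A_55_P2036547, chr3:98515084-98515113: gcccaatggaagaaacaattatttgtcaat
Hsd3b2 A_55_P2132812, chr3:98513755-98513784: tgaagtatggacactatgcccctccttaga

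All values below are log2 intensities after quantile normalization, given as mean ± SD over 6 arrays, and levels are compared only within a probe. All 14 probes passed the filter on dim signal. A probe passed the test at an adjusted p under 0.05 from limma, Benjamini-Hochberg over 32078 probes. In labelled male pesticide against male control livers, 2 probes rose, 7 fell and 5 did not pass. That compares with 22.2% of all tested probes passing, 11.6% higher and 10.7% lower. The groups did not overlap for 8 of the 14 probes, against 10.2% of all. In labelled female pesticide against female control livers, 2 rose, 8 fell and 4 did not pass, where 18.3% of all tested probes passed, 8.88% higher and 9.44% lower, and the groups did not overlap for 6 of the 14, against 7.83% of all. With each gene read by its brightest probe, 5 of 9 genes passed in the labelled male comparison and 6 of 9 in the labelled female one. The median log2 difference of the 14 probes was -0.49 under the male label and -0.46 under the female label, beside -0.03 and -0.02 for all tested probes.

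**Figure D1:**
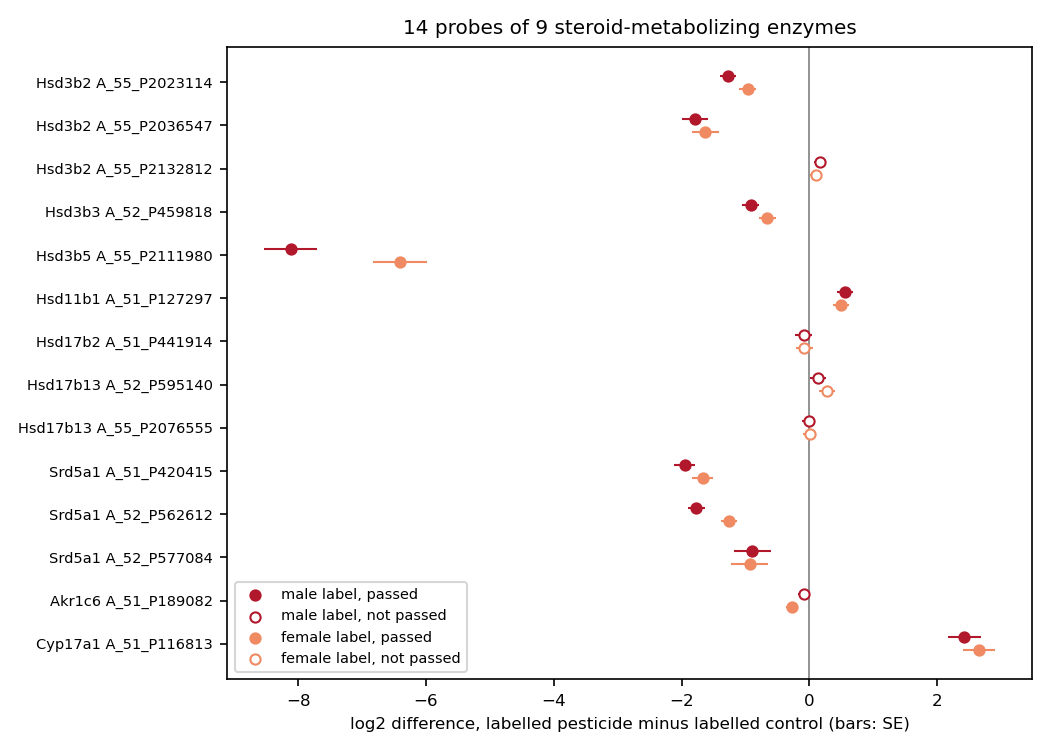
Log2 difference of labelled pesticide minus labelled control for each of the 14 probes, with its standard error, under the male label (dark red) and the female label (orange); filled points passed the test. Hsd3b5 lies at -8.12 and -6.40, Cyp17a1 is the furthest to the right at 2.43 and 2.66, and the brightest Hsd3b2 probe stands apart from the dimmer ones.

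Hsd3b5 encodes a 3-ketosteroid reductase made in male mouse liver, and its signal was near background in pesticide-labelled livers and far above it in control-labelled livers. The 6 labelled male pesticide arrays, replicates 1 to 6, read 5.34, 5.85, 5.75, 5.43, 5.55 and 5.49. The labelled male control arrays read 13.46, 13.48, 14.03, 13.93, 13.21 and 14.03. All pesticide-labelled arrays lay far below all control-labelled ones, and the probe was well above background on 2 of the 6 pesticide arrays and on 6 of 6 control arrays.

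The labelled female pesticide arrays read 5.62, 7.25, 5.32, 5.77, 5.67 and 5.86 for Hsd3b5. The labelled female control arrays read 12.05, 14.76, 10.73, 12.30, 11.52 and 12.54. Again the groups did not overlap, but both were more spread out than their male-labelled counterparts. Replicate 2 was the highest and replicate 3 the lowest array in each female-labelled group, and the order of the replicate numbers differed between these groups only in replicates 1 and 5.

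The Hsd3b5 log2 difference was -8.12 ± 0.42 (SE; 278-fold lower; limma adjusted p = 3e-13) in labelled male pesticide against male control livers. It was -6.40 ± 0.42 (84.7-fold lower; adjusted p = 4.5e-11) in labelled female pesticide against female control livers. Among the 32078 tested probes these were the 4th and 7th lowest differences. Since 4 of the male and 3 of the female pesticide arrays were not well above background, background signal there limits how large either fold can appear.

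Variation within groups was uneven for Hsd3b5. The SE of each difference does not reflect this, because limma pools the spread of a probe over all groups. The labelled male control group averaged 13.69 ± 0.35 and spanned 1.77-fold in linear signal. The labelled female control group averaged 12.32 ± 1.36 and spanned 16.3-fold, between 1703 and 27820.2 signal units, and 5 of its 6 arrays lay below the lowest male control array. By SD in this group Hsd3b5 ranked 50th of the tested probes. The labelled male control minus female control difference was 1.37 ± 0.42, which did not pass (limma adjusted p = 0.4). The labelled male and female pesticide groups averaged 5.57 ± 0.19 and 5.92 ± 0.68.

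**Figure D2:**
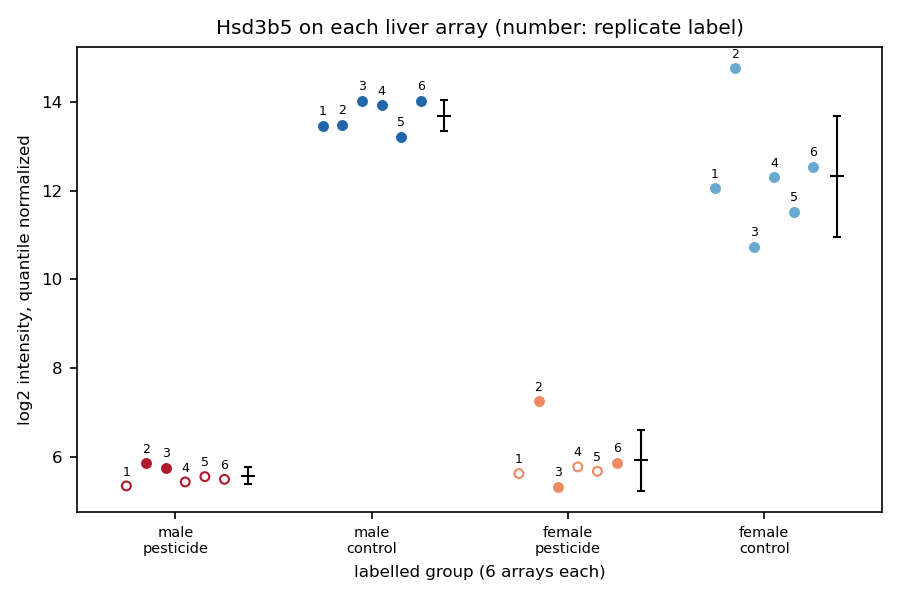
Hsd3b5 log2 intensity on each of 24 arrays by labelled group, with replicate numbers; open points were not well above background, and bars give the mean ± SD. Pesticide-labelled arrays lie between 5.32 and 7.25 and control-labelled arrays between 10.73 and 14.76, with the widest spread in labelled female control.

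The genes whose levels ran most like Hsd3b5 over the 24 arrays, out of 14468 candidates, were Susd4 (Pearson r = 0.988), Slco1a1, a hepatic organic anion carrier (0.987), Ttc39c (0.985), Lama3, a laminin chain (0.985), and Zfp445 (0.981). These r values mainly describe the gap between the labelled diets, which the 24 points share. By deviations from group means, the closest were Tbx10 (0.776), Tmem87a (0.762), Tmem29 (0.737), Olfr806 (0.736) and Prn (0.735). All of these were dim, with group means between 6.02 and 7.53. The Hsd3b5 deviations were largest in the labelled female control group (SD 1.36). Because these r values are the highest of 14468, some would be high by chance, and whether any exceeds chance was not tested. The closest genes by the first measure and by the second were thus different ones.

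Hsd3b2, another dehydrogenase of the 3-beta family encoded in the same cluster as Hsd3b5 and Hsd3b3 on chromosome 3, gave 2 readings. Probe A_55_P2023114 (NM_153193, chr3:98515703-98515762) had a lowest, median and highest value of 10.17, 10.56 and 10.80 in labelled male pesticide livers, against 11.71, 11.78 and 11.92 in male control livers. In labelled female pesticide livers they were 10.40, 10.66 and 10.75, against 10.999, 11.67 and 11.98 in female control livers. The groups did not overlap under either sex label. The differences were -1.27 ± 0.13 (limma adjusted p = 1.5e-07) and -0.96 ± 0.13 (adjusted p = 1.3e-05), a lower signal in labelled pesticide livers.

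The second Hsd3b2 probe of the same transcript, A_55_P2036547 (chr3:98515054-98515113), fell further, by 1.79 ± 0.21 on the log2 scale under the male label (limma adjusted p = 1e-06), and fell by 1.63 ± 0.21 under the female label (adjusted p = 5.3e-06), again without overlap. The third, A_55_P2132812, assigned to the Ensembl transcript ENSMUST00000107022 (chr3:98513725-98513784), did not follow them. It averaged 13.59 ± 0.13 in labelled male pesticide and 13.43 ± 0.23 in male control livers, with 13.47 ± 0.07 in labelled female pesticide and 13.37 ± 0.13 in female control livers. Its differences of 0.16 ± 0.09 and 0.10 ± 0.09 did not pass (limma adjusted p = 0.2 and 0.48), and the first passed without labelled male control replicate 6 (0.23, adjusted p = 0.047). Because this is the brightest of the 3, Hsd3b2 is not among the genes counted as passing. Which probe reads the main liver transcript was not tested.

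Hsd3b3, of the same cluster, was read by A_52_P459818 (chr3:98546284-98546343). Its lowest, median and highest values were 9.70, 9.999 and 10.32 in labelled male pesticide livers, against 10.71, 10.84 and 11.41 in male control livers. The corresponding values were 9.74, 10.18 and 10.28 in labelled female pesticide livers, against 10.28, 10.81 and 11.09 in female control livers, where the groups met at a single array. Hsd3b3 fell in both comparisons, by 0.92 ± 0.14 under the male label (limma adjusted p = 3.1e-05) and by 0.65 ± 0.14 under the female label (adjusted p = 0.0015) on the log2 scale. Family members outside the 9 genes moved in opposite directions. Hsd3b6 fell by 0.96 ± 0.11 (adjusted p = 6.2e-07) and 0.74 ± 0.11 (adjusted p = 3.4e-05), while Hsd3b1, the form best known from steroid-producing glands, rose by 1.37 ± 0.35 (limma adjusted p = 0.007) and 1.60 ± 0.35 (adjusted p = 0.0025).

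The upstream windows of Hsd3b5 and Hsd3b3 are shown because both genes lie in the cluster and fell together. These are 250 bases ending at the base before a RefSeq start, on GRCm38.p6, both minus strand. Hsd3b3 has 2 such windows, and the first is shown. Capitals mark the 1 run of at least 12 aligned identical bases, which is 24 bases long.
Hsd3b5, chr3:98645535-98645784: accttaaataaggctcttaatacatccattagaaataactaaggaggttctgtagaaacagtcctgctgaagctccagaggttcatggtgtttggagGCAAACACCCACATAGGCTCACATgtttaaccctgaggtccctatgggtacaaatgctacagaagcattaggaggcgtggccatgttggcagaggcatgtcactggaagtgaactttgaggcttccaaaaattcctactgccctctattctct
Hsd3b3, chr3:98763129-98763378: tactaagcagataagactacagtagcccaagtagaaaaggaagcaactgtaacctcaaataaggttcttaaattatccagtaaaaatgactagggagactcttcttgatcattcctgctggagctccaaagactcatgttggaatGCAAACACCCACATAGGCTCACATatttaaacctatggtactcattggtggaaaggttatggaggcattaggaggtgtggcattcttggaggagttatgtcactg
Aligned end to end, the pair was identical in 151 of 301 alignment columns (50.2%), and Hsd3b5 and Hsd3b2 in 139 of 286 (48.6%). Columns with a gap count as not identical. The shared run lies nearer the RefSeq start in Hsd3b3 than in Hsd3b5, so the windows are offset and 50.2% understates the likeness of their paired bases. The 2 percentages therefore do not rank the pairs by likeness. The Hsd3b3 window not shown was 98.8% identical to the one shown, and identical to Hsd3b5 in 153 of 300 columns (51.0%). RefSeq windows were matched for 7 of the 9 genes. The STAT5 motif TTCNNNGAA, searched on both strands, occurred in 0 of those 7 genes and in 7.02% of 32851 mouse windows of the same length. The CCAAT motif occurred in 4 of the 7 (Hsd3b3, Hsd11b1, Srd5a1 and Akr1c6) and in 33.8% of all windows. The receptor hexamer TGTTCT occurred in 1 of the 7, Hsd3b2 (16.1% of all windows). Hsd3b5 held none of these letter patterns.

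Srd5a1 encodes steroid 5-alpha reductase, which makes dihydrotestosterone and begins the clearance of several steroids, and all 3 of its probes fell in both comparisons. The brightest, A_51_P420415 (chr13:69712376-69712435, minus strand), had a lowest, median and highest value of 11.74, 12.18 and 12.76 in labelled male pesticide livers, against 13.70, 14.29 and 14.49 in male control livers. The values were 11.91, 12.14 and 12.50 in labelled female pesticide livers, against 13.49, 13.85 and 14.24 in female control livers. No pesticide-labelled array reached the lowest control-labelled one. The differences were -1.95 ± 0.17 (3.86-fold lower; limma adjusted p = 6.4e-09) and -1.67 ± 0.17 (3.17-fold lower; adjusted p = 1.2e-07).

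A_52_P562612 (chr13:69733518-69733577) gave Srd5a1 differences of similar size, -1.77 ± 0.13 under the male label (limma adjusted p = 4e-10) and -1.26 ± 0.13 under the female label (adjusted p = 1.9e-07), without overlap. A_52_P577084, assigned to the cDNA clone AK019597 (chr13:69749409-69749468), overlapped between groups, and its differences of -0.89 ± 0.29 (limma adjusted p = 0.03) and -0.93 ± 0.29 (adjusted p = 0.027) were closer to the threshold. Its male call was lost without labelled male control replicate 6 (-0.63, adjusted p = 0.084), and its female call without labelled female control replicate 2 (-0.82, adjusted p = 0.065), among other single arrays. Its labelled male control group held 1 high array, 9.57 beside a group median of 8.08.

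**Figure D3:**
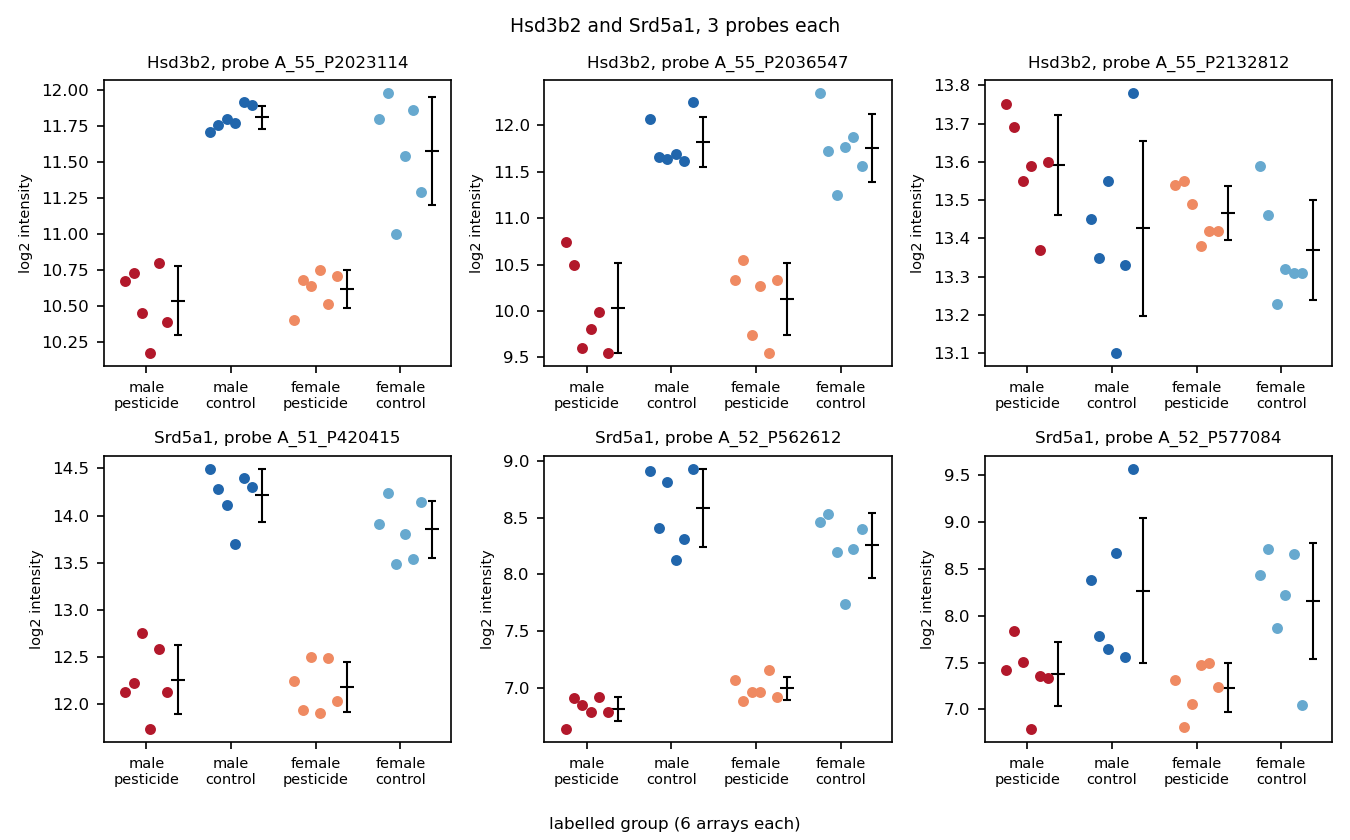
Log2 intensity on each array by labelled group for the 3 probes of Hsd3b2 (top) and of Srd5a1 (bottom), each panel with its own axis; bars give the mean ± SD over 6 arrays. The groups separate for the first 2 probes of each gene and overlap for the third.

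Cyp17a1, the 17-alpha-hydroxylase and 17,20-lyase that opens the way to androgens, moved the other way. Its probe A_51_P116813 has ends 614 bases apart on chromosome 19 (chr19:46742594-46743207, minus strand). The lowest, median and highest values were 12.59, 14.17 and 14.32 in labelled male pesticide livers, against 11.17, 11.37 and 11.89 in male control livers. In labelled female pesticide livers they were 13.52, 13.80 and 15.03, against 11.13, 11.38 and 11.58 in female control livers. Every pesticide-labelled array was above every control-labelled array. The rise was 2.43 ± 0.26 (5.38-fold; limma adjusted p = 2.3e-07) under the male label and 2.66 ± 0.26 (6.31-fold; adjusted p = 6.2e-08) under the female label, the 58th and 41st highest differences of all tested probes.

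Cyp17a1 within the 3 slides, each holding 2 arrays of every group, differed by 1.38, 3.01 and 2.90 under the male label and by 2.30, 3.41 and 2.27 under the female label. Labelled male pesticide replicate 1, on slide 1, was the low array. Slide 1 alone did not carry the male call (adjusted p = 0.09). Of 14 genes marking steroid-producing glands, 7 were tested. Akr1b7, Nr5a1 and Hsd3b1 rose in both comparisons. In each comparison 2 of the 7 fell, but only 1 marker, Mc2r, fell in both. Mc2r fell by 1.11 ± 0.19 under the male label (limma adjusted p = 0.00019) and by 0.70 ± 0.19 under the female label (adjusted p = 0.012). Cyp11b1 was well above background on 0 arrays, Cyp11b2 on at most 1, and Cyp11a1, which starts steroid synthesis from cholesterol, on at most 2. The summed log2 level of the 7 tested was 13.18 to 14.34 in labelled male pesticide and 13.74 to 14.54 in male control livers, and 13.88 to 14.31 in labelled female pesticide and 14.06 to 15.35 in female control livers.

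Hsd11b1, which regenerates active glucocorticoid in hepatocytes, rose modestly (A_51_P127297, chr1:195048169-195048228, minus strand). Its lowest, median and highest values were 16.21, 16.39 and 16.63 in labelled male pesticide livers, against 15.62, 15.82 and 16.16 in male control livers. They were 16.22, 16.36 and 16.54 in labelled female pesticide livers, against 15.46, 15.94 and 16.36 in female control livers. The male-labelled groups were separate and the female-labelled groups overlapped. The differences were 0.56 ± 0.13 (limma adjusted p = 0.0025) and 0.49 ± 0.13 (adjusted p = 0.0075), and neither passed when the scanner's processed signal was scaled to the 75th percentile (0.39, adjusted p = 0.067, and 0.43, adjusted p = 0.054).

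Akr1c6, the mouse aldo-keto reductase that acts as a 17-beta-hydroxysteroid dehydrogenase, was read by A_51_P189082 (chr13:4456428-4456487, plus strand). It averaged 17.33 ± 0.23 in labelled male pesticide and 17.42 ± 0.10 in male control livers, and 17.19 ± 0.17 in labelled female pesticide and 17.45 ± 0.07 in female control livers. Both pesticide groups were wider than their control groups and overlapped them: labelled male pesticide arrays reached above and below the male control arrays, and labelled female pesticide arrays mostly lay below the female control arrays. The difference was -0.09 ± 0.09 under the male label (limma adjusted p = 0.54) and -0.27 ± 0.09 under the female label (adjusted p = 0.043). The female call was lost without any of several single arrays, as without labelled female pesticide replicate 3 (-0.21, adjusted p = 0.11), and the male difference passed when median signals were scaled to the 75th percentile (-0.32, adjusted p = 0.026).

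**Figure D4:**
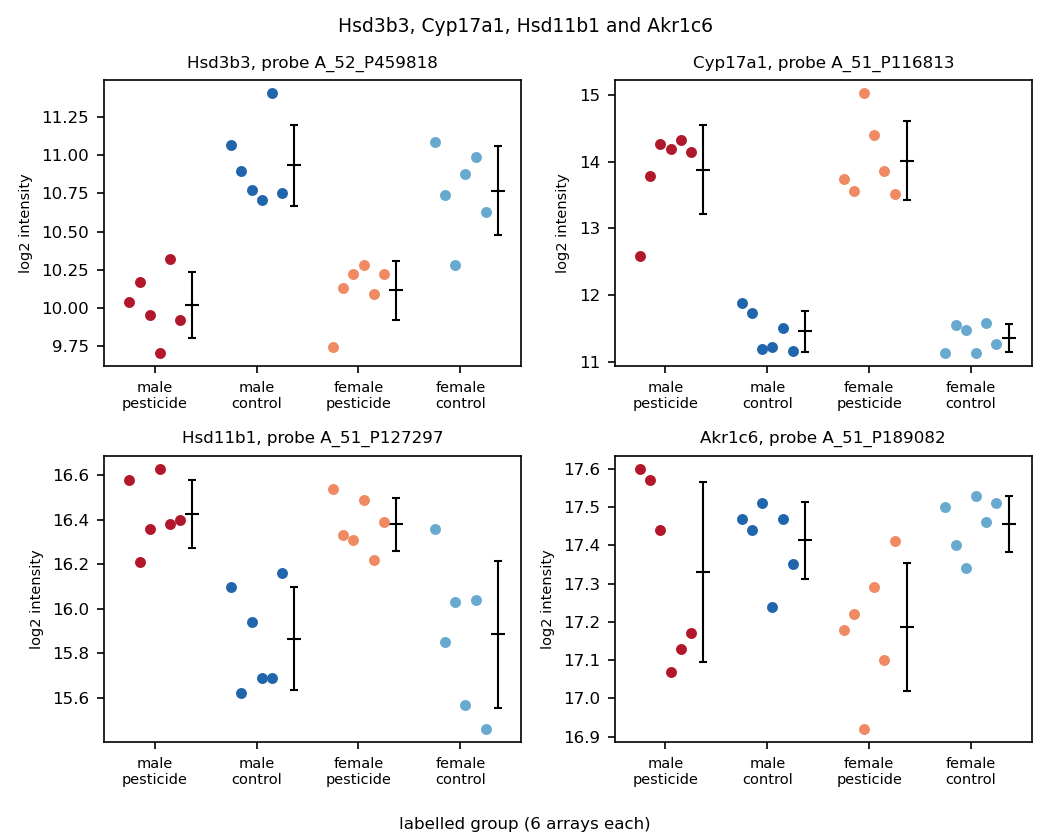
Log2 intensity on each array by labelled group for Hsd3b3, Cyp17a1, Hsd11b1 and Akr1c6, each panel with its own axis; bars give the mean ± SD over 6 arrays. Cyp17a1 separates the labelled diets under both sex labels, with 1 low array at 12.59, Hsd3b3 does so under the male label and meets at a single array under the female label, and Akr1c6 values overlap within a range of less than 1 log2 unit.

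Hsd17b2, which oxidises estradiol and testosterone to weaker steroids, showed no difference that passed. Its probe A_51_P441914 (chr8:120282508-120282567, plus strand) averaged 12.99 ± 0.16 in labelled male pesticide and 13.08 ± 0.23 in male control livers, and 12.95 ± 0.25 in labelled female pesticide and 13.03 ± 0.30 in female control livers. The 95% interval of the male difference ran between -0.34 and 0.17 and that of the female difference between -0.34 and 0.18.

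Hsd17b13, a hepatocyte lipid-droplet protein, was read by 2 probes on chromosome 5. A_52_P595140, whose ends lie 1733 bases apart (chr5:104399858-104401590, minus strand), differed by 0.14 ± 0.12 under the male label (limma adjusted p = 0.45) and by 0.27 ± 0.12 under the female label (adjusted p = 0.13). The female-label value was 0.36 and passed (adjusted p = 0.044) without labelled female control replicate 1. A_55_P2076555 (chr5:104384701-104384760) gave Hsd17b13 differences of 0.00 ± 0.10 and 0.01 ± 0.10. It averaged 6.35 ± 0.15 in labelled male pesticide and 6.35 ± 0.10 in male control livers, and 6.48 ± 0.17 in labelled female pesticide and 6.47 ± 0.25 in female control livers.

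Between the sexes as labelled, these enzymes gave no call. The interaction (male diet difference minus female diet difference) passed for 0 of the 14 probes and 0 of all tested probes (0%), with 1265 (3.94%) at an unadjusted p under 0.05. Of the 14, 2 were under that p: Hsd3b5, at -1.71 ± 0.59 (unadjusted p = 0.0078, limma adjusted p = 0.93), and the Srd5a1 probe A_52_P562612, at -0.51 (unadjusted p = 0.011, adjusted p = 1). Labelled male control minus female control also passed for 0 probes (1792, or 5.59%, at an unadjusted p under 0.05, 3 of the 14 among them), as did labelled male pesticide minus female pesticide (1311, or 4.09%, with 1 of the 14).

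Other genes of steroid handling were read from lists that complement the 9 enzymes, 1 probe per gene. Among 15 tested of 19 other hydroxysteroid dehydrogenases, 2 rose, 3 fell and 10 did not pass under each sex label. Besides Hsd3b1 and Hsd3b6, Hsd17b6 rose by 2.38 ± 0.34 (limma adjusted p = 2e-05) and 1.79 ± 0.34 (adjusted p = 0.00069). Their median difference was -0.03 under the male label and -0.13 under the female label. Of 11 tested reductases and aldo-keto reductases, 1 rose and 10 did not pass under each label. That gene was Akr1d1, the steroid 5-beta reductase that also serves bile acid synthesis, which rose by 0.54 ± 0.14 (limma adjusted p = 0.007) and 0.62 ± 0.14 (adjusted p = 0.0029) while Srd5a1 fell.

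Of 7 tested steroidogenic cytochromes, electron carriers and cholesterol transporters, 3 fell under the male label and 2 under the female label, with none higher. Cyp7b1, the oxysterol 7-alpha-hydroxylase, averaged 11.22 ± 0.45 in labelled male pesticide and 14.66 ± 0.54 in male control livers. It fell by 3.43 ± 0.25 (limma adjusted p = 3e-10) and fell by 3.03 ± 0.25 under the female label (adjusted p = 3.9e-09). Fdx1, the electron carrier of mitochondrial cytochromes, fell by 0.34 ± 0.07 (adjusted p = 0.0011) and 0.36 ± 0.07 (limma adjusted p = 0.00069). Of 9 genes of electron and cofactor supply, 1 passed, under the male label: H6pd, which supplies NADPH to Hsd11b1, fell by 0.42 ± 0.14 (limma adjusted p = 0.029), with -0.35 under the female label (adjusted p = 0.074). H6pd and Hsd11b1 thus moved in opposite directions under the male label.

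Steroid conjugation and hydrolysis genes passed more often than not. Of 11 tested, 2 rose and 5 fell under the male label, and 2 rose and 6 fell under the female label. Sult2a1, a hydroxysteroid sulfotransferase, was detected in all 12 pesticide-labelled livers and in 0 of 12 control-labelled ones, at least 2451-fold higher under the male label (limma adjusted p = 7.2e-25) and at least 2140-fold higher under the female label (adjusted p = 1.3e-24). Ugt2b1, a steroid glucuronosyltransferase, fell by 1.42 ± 0.13 (adjusted p = 1.6e-08) and 1.05 ± 0.13 (limma adjusted p = 2.5e-06), and Ugt2b35 by 0.90 ± 0.14 and 0.96 ± 0.14. Of 10 tested receptors and plasma carriers, 4 rose under the male label and 5 under the female label, with none lower. Esr1, the estrogen receptor, rose by 1.11 ± 0.14 (limma adjusted p = 4.8e-06) and 1.15 ± 0.14 (adjusted p = 3.6e-06). Serpina6, the corticosteroid-binding globulin, rose by 1.12 ± 0.14 and 0.83 ± 0.14.

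**Figure D5:**
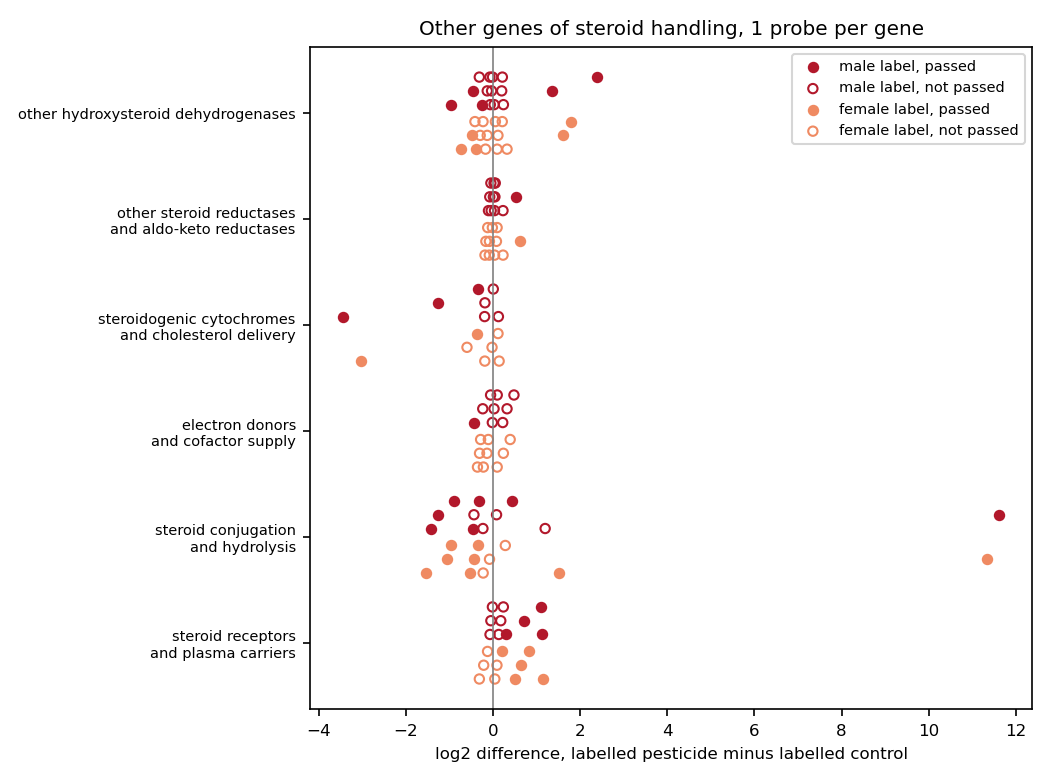
Log2 difference of labelled pesticide minus labelled control for the tested genes of 6 steroid-handling lists, under the male label (dark red) and the female label (orange); filled points passed the test and vertical scatter within a list has no meaning. Most genes lie within 1 log2 unit of 0, Cyp7b1 lies near -3.43, and the Sult2a1 points beyond 11 are set against a background signal.

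Markers of other liver cells moved alongside these genes. Of 14 Kupffer cell and macrophage markers, 13 rose under each label, their summed log2 level being 16.07 to 16.92 in labelled male pesticide and 14.80 to 16.50 in male control livers. For labelled female pesticide and female control livers the ranges were 15.54 to 17.31 and 14.49 to 16.71. Of 12 endothelial markers 8 rose under each label, with summed levels of 15.03 to 15.54 in labelled male pesticide and 14.53 to 15.03 in male control livers, and 15.09 to 15.48 in labelled female pesticide and 14.52 to 14.94 in female control livers. Of 12 stellate cell markers 10 rose under the male label and 6 under the female label, with summed levels of 16.62 to 16.87 in labelled male pesticide and 15.81 to 16.34 in male control livers, and 16.60 to 16.83 in labelled female pesticide and 16.03 to 16.49 in female control livers. Of 11 tested lymphocyte markers 4 rose under the male label and 0 under the female label, while their summed log2 level was 13.84 to 14.23 (median 13.95) in labelled male pesticide and 13.77 to 14.50 (median 14.105) in male control livers. Under the female label it was 13.37 to 14.08 (median 13.75) in pesticide and 13.44 to 14.30 (median 14.01) in control livers, so the sum did not follow the 4 markers. Of 4 tested adipocyte markers 1, Cfd, fell under each label, with summed levels of 10.06 to 10.75 in labelled male pesticide and 10.11 to 11.36 in male control livers, and 10.31 to 10.87 in labelled female pesticide and 10.52 to 12.25 in female control livers. In bulk liver, fewer cells of a type and less RNA per cell cannot be told apart, and the part of cell makeup in the enzyme differences was not tested. Hepatocyte markers passed for 0 of 12 genes under the male label and 1 of 12, Fgb, under the female label (0.28 ± 0.09, limma adjusted p = 0.024).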

How the data were processed

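Liver RNA of the 24 arrays was measured with the Cy3 dye. Spot fluorescence intensity is what the deposited scanner files give, per the file headers, extracted with Agilent Feature Extraction 10.10.1.1 per the submitters' processing notes. A table of log2 values that the authors filtered and quantile normalized, per the labels, was used only as an alternative. Here the median spot signal was used: outlier spots (0 to 9 on an array) were dropped, repeat spots averaged, and log2 values of 56605 probes quantile normalized without subtracting background. A probe was tested when well above background on at least 4 of 6 arrays of a group (32078 probes). One mean per group was fitted with limma 3.58.1 in R 4.3.3, two-sided, with Benjamini-Hochberg adjustment at 0.05. Listed genes were represented by their brightest tested probe, and up to 4 passing genes with the smallest p were named per list, except 1 that is not reported here. On simulated data, 95% of changes of 1 log2 unit were recovered over 32057 probes, with 12 false calls. There, 100 probes changed by 1 log2 unit and 100 by 2, in labelled male pesticide arrays only. The noise was independent between probes and equal between groups, unlike in these data, where far more probes passed. The recovery therefore holds for that simpler setting. Where a probe was below background throughout a group, the fold is a bound against the lowest signal well above background. Upstream windows came from RefSeq (biopython 1.88). Arrays give no counts, and their number limits the precision. The enzymes and gene lists were chosen with earlier results of these data known. Alternatives were background correction, scaling, filters, outlier spots, slide or replicate blocks, single slides, array weights, other eBayes settings, only the arrays compared, the deposited table and leaving out each array.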

Additional observations from a re-analysis of the deposited data

Results flagged for a closer look

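Within a group of 6 arrays, 3 of 56 probe and group combinations held an array whose gap to its neighbour was large for the group's range, and chance alone gives about 1 in 20 groups. Hsd3b5 read 7.25 in labelled female pesticide replicate 2, where the next highest was 5.86 and the lowest 5.32. Cyp17a1 read 12.59 in labelled male pesticide replicate 1, where the next lowest was 13.79 and the highest 14.32. Hsd3b3 read 9.74 in labelled female pesticide replicate 1, where the next lowest was 10.09 and the highest 10.28. Each of these 3 genes passed in the comparison concerned without that array.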

How the results depend on the processing

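No difference of the 14 probes turned its direction while passing under any alternative. The probes passing in the labelled male comparison numbered 7131, with 1052, 583 and 459 in slides 1, 2 and 3 alone, and 5921 to 7483 when each array was left out. In the labelled female comparison they numbered 5878, with 1041, 319 and 346 in slides 1, 2 and 3 alone, and 4777 to 6526 when each array was left out. Each slide holds 2 arrays per group. Genes passing of the 9, by brightest probe, were 3, 2 and 3 in slides 1, 2 and 3 alone under the male label. Under the female label they were 4, 2 and 3. When each array was left out, 5 to 6 passed under either label. Labelled male control minus female control called 0 to 1 probes when each array was left out (1 without labelled female control replicate 1 or 6). Labelled male pesticide minus female pesticide called 2 in slide 1 alone and 0 to 1 when each array was left out (1 without labelled female control replicate 4). With the replicate number as a block, the Akr1c6 call under the female label was lost (-0.27, adjusted p = 0.05). The labels do not say what a replicate number marks. Same-numbered arrays, which also share a slide, deviated together with a mean r of 0.06 to 0.18 per number, single pairs reaching down to -0.12, and 14 of 24 arrays correlated best with an array of their own number. Since arrays of a number always share a slide, these values cannot tell pairing from a shared slide. The design names no pairing, so the arrays were taken as unpaired. Scaling to the 75th percentile moved the median of all probes to -0.08 under the male label and -0.03 under the female label. Hsd3b5 was left untested when a probe had to be above background on all 24 arrays. Its fold is limited by background signal in pesticide-labelled livers.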
